A study of Mus musculus with 12 samples.

Results

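The 6 genes described here mark the neurons that make serotonin and noradrenaline. They were taken by name from a table of 43346 genes: Tph2, Slc6a4, Fev, Gch1, Dbh and Slc6a2. RNA was sequenced from 12 mouse brain libraries in 3 groups of 4. Each came from a frozen cross-section of brain holding hippocampus and cortex. The Young libraries (numbered 1, 3, 4 and 5) came from untreated mice of 3 months, with the strain label C57BL/6 and the genotype label wild type. The Old libraries (7, 8, 9 and 10) came from mice of 23 months that drank water with 0.1% PEG, the vehicle, from the age of 9 months. The Old_CP2 libraries (11, 12, 13 and 15) came from mice of the same age that drank the same vehicle with CP2, an inhibitor of mitochondrial complex I, at 25 mg/kg/day from 9 months. Both groups of 23 months carry the strain label C57BL/6;SJL-Tg and the genotype label wild type. The sample titles call all 12 non-transgenic, while the design text speaks of APP/PS1 mice. Age, strain label and vehicle all differ between Young and Old, so their parts cannot be told apart. The labels do not say that the libraries of a group came from separate animals, so p-values measure the spread between these libraries.

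Serotonin in the brain is made by neurons of the raphe nuclei, a column of cell groups along the midline of the brainstem. Noradrenaline is made mostly by the locus coeruleus and smaller cell groups of the pons and medulla. Both kinds of neuron send axons throughout the hippocampus and cortex, but their cell bodies, where most of their messenger RNA is found, lie in the brainstem. Tph2 encodes the enzyme that starts serotonin synthesis in neurons, Slc6a4 the serotonin transporter that takes serotonin back up, and Fev (also called Pet-1) an ETS transcription factor of serotonin neurons. Gch1 encodes GTP cyclohydrolase, which starts the synthesis of tetrahydrobiopterin, the cofactor of the tryptophan and tyrosine hydroxylases. Dbh encodes the enzyme that turns dopamine into noradrenaline, and Slc6a2 the noradrenaline transporter. In pieces of tissue such as these, fewer cells of a type and less RNA per cell cannot be told apart.

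Tph2, Slc6a4, Fev and Gch1 were higher in every one of the 8 libraries of 23 months than in any Young library. Of all tested genes, 6.94% were higher without overlap in Old than in Young, and 8.42% in Old_CP2 than in Young. The share higher in both was not counted. Slc6a4 was on average 36.9 times and Tph2 10.2 times as high in Old as in Young, and these rises passed the test, that of Tph2 with less margin. Dbh and Slc6a2 followed another pattern: high levels of both were seen in Old 7 and Old_CP2 15, and the other libraries held few reads. No gene of the 6 passed the test between Old_CP2 and Old. Library Old_CP2 15 held the highest level of all 6 genes.

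The deposited counts summed to between 70548781 and 99449665 per library. Levels are given as reads counted on the gene and as normalised CPM, that is, the gene's counts as a share of the library's total after its TMM factor, on the usual CPM scale. Of all genes in the table, 22553 had enough reads to be tested, and all 6 genes were among them. Fev, Slc6a4 and Slc6a2 had at most 10, 16 and 5 reads in any Young library. They were therefore kept mainly through their reads in Old and Old_CP2. A gene as scarce in all groups would not have been tested. How far this selection shapes their differences from Young, or the shares of all tested genes set beside them, was not tested. Differences were tested with edgeR's quasi-likelihood F test, two-sided, over all 12 libraries. A gene is said to have passed, risen or fallen where its Benjamini-Hochberg adjusted p over those 22553 genes was under 0.05. The median log2 fold change of all tested genes lay between -0.0076 and 0.00174 in the 3 comparisons.

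On the mm10 build, Tph2 (ENSMUSG00000006764) lies on chromosome 10 from 115078641 to 115185022 on the minus strand, with 13 blocks of exons. Slc6a4 (ENSMUSG00000020838) lies on chromosome 11 from 76998603 to 77032340 on the plus strand, with 15 blocks. Fev (ENSMUSG00000055197) is the shortest, from 74881509 to 74885419 on the minus strand of chromosome 1, with 3 blocks. Gch1 (ENSMUSG00000037580) lies on chromosome 14 from 47153895 to 47189413 on the minus strand, Dbh (ENSMUSG00000000889) on chromosome 2 from 27165233 to 27183200 on the plus strand, and Slc6a2 (ENSMUSG00000055368) on chromosome 8 from 92960079 to 93001667 on the plus strand. In all, 3 annotated genes overlap Slc6a4 or Gch1 in position, and none shares an exon base with them, so reads counted on exons are not split with a neighbour.

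The promoters of Tph2, Slc6a4 and Fev are shown because these 3 genes of serotonin neurons ordered the libraries of 23 months most alike. Each is the 250 bases before the gene's start, 5′ to 3′ on the gene's strand, from RefSeq (GRCm38.p6, the same sequence as mm10); 5 of the 6 genes matched that table. Capitals mark matches to the searched motifs.
Tph2, chr10:115185023-115185272, minus strand: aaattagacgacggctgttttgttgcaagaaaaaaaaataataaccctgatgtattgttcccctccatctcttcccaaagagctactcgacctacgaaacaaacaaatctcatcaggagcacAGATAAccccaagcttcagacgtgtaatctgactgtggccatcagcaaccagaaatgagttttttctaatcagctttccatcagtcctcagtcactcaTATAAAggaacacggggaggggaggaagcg
Slc6a4, chr11:76998347-76998596, plus strand: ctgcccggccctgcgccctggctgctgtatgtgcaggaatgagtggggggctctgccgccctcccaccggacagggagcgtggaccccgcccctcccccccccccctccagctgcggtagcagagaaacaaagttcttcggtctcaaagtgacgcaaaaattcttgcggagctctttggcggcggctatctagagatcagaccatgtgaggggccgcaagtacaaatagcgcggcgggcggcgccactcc
Fev, chr1:74885409-74885658, minus strand: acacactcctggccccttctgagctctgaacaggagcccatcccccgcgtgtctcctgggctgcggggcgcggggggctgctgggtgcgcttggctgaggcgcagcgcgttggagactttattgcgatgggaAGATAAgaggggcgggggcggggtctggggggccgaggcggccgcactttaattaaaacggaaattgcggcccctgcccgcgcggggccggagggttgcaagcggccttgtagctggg
In Tph2 the capitals are a GATA match (AGATAA) from -128 to -123 and a TATA match (TATAAA) from -30 to -25, counted back from the gene's start. In Fev they are a GATA match from -118 to -113, and the last 11 bases lie in an annotated exon. The Slc6a4 window held no match. The search covered 5 motifs on both strands: the GATA letters AGATAA, found in 9.99% of all 32851 promoters of the same length, the TATA letters TATAAA in 12.4%, the ETS letters GGAAGT in 19.7%, the cyclic AMP response letters TGACGTCA in 1.55%, and the AP-2 letters GCCNNNGGC in 13.7%. Of the other windows, Gch1 held 1 TATA match and Dbh none, but all 250 bases of the Dbh window lie in annotated exons (GENCODE). G and C made up 43.6% of the Tph2 window, 64.8% of that of Slc6a4 and 68% of that of Fev, against a median of 52.4% over all promoters. A match describes letters and is not evidence of a bound factor.

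Tph2, the serotonin-making enzyme, had 47, 52, 48 and 58 reads in Young 1, 3, 4 and 5. It had 278, 516, 826 and 386 reads in Old 7, 8, 9 and 10. In Old_CP2 11, 12, 13 and 15 it had 491, 542, 201 and 4005 reads. The Young libraries hardly differed from each other, all libraries of 23 months stood above them, and Old_CP2 15 stood far above all others. As normalised CPM, the level was 0.611 ± 0.0293 in Young, 6.25 ± 3.29 in Old and 15.6 ± 22.7 in Old_CP2 (SD, n = 4 each). Without Old_CP2 15, the Old_CP2 level was 4.27 ± 1.82 (SD, n = 3), a mean within the range of Old.

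Slc6a4, the serotonin transporter, was nearly absent from the Young libraries, with 16, 8, 7 and 4 reads. The Old libraries had 122, 366, 532 and 228 reads, in the order 7, 8, 9 and 10. The Old_CP2 libraries had 286, 395, 105 and 2268, in the order 11, 12, 13 and 15. As for Tph2, the lowest library of 23 months was Old_CP2 13 and the highest Old_CP2 15, and no library of 23 months overlapped Young. The normalised CPM was 0.107 ± 0.0697 in Young, 3.94 ± 2.46 in Old and 9.06 ± 12.8 in Old_CP2 (SD, n = 4 each), and 2.71 ± 1.46 in Old_CP2 without library 15 (SD, n = 3).

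Fev, the transcription factor, was the scarcest of the serotonin neuron genes in reads at 23 months. Young 1, 3, 4 and 5 had 8, 10, 4 and 4 reads, Old 7, 8, 9 and 10 had 18, 27, 38 and 17, and Old_CP2 11, 12, 13 and 15 had 28, 24, 14 and 132. The groups of 23 months lay above Young without overlap, by a narrow margin in Old_CP2 13 (0.152 normalised CPM against at most 0.111 in Young). Mean levels were 0.0775 ± 0.0344 in Young, 0.312 ± 0.144 in Old and 0.581 ± 0.706 in Old_CP2 (SD, n = 4 each), and 0.229 ± 0.071 in Old_CP2 without library 15 (SD, n = 3).

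Gch1, the cofactor enzyme, was present in all libraries and varied least. It had 100, 131, 98 and 103 reads in Young, 143, 169, 199 and 183 in Old, and 187, 254, 179 and 477 in Old_CP2, in the order of the library numbers. The lowest library of 23 months, Old 7 at 1.58 normalised CPM, was close above the highest Young library at 1.45. The normalised CPM was 1.29 ± 0.125 in Young and 3.10 ± 1.90 in Old_CP2 (SD, n = 4 each), and ran from 1.58 to 2.49 in Old. Without library 15 it was 2.16 ± 0.371 in Old_CP2 (SD, n = 3).

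Dbh, the noradrenaline-making enzyme, had 16, 18, 20 and 30 reads in Young 1, 3, 4 and 5, 66, 0, 18 and 31 in Old 7, 8, 9 and 10, and 8, 20, 21 and 166 in Old_CP2 11, 12, 13 and 15. Old 8 had no read, which allows up to 0.0441 normalised CPM by counting error alone (3 reads). The groups overlapped: 2 libraries of 23 months lay above all Young libraries and 2 below them. Mean levels were 0.249 ± 0.0622 in Young, 0.321 ± 0.305 in Old and 0.643 ± 0.945 in Old_CP2 (SD, n = 4 each), and 0.172 ± 0.0774 in Old_CP2 without library 15 (SD, n = 3).

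Slc6a2, the noradrenaline transporter, had 4, 4, 5 and 2 reads in Young, 102, 8, 16 and 0 in Old, and 3, 2, 2 and 195 in Old_CP2, in the order of the library numbers. Old 7 and Old_CP2 15 held most of its 343 reads, and the remaining Old_CP2 libraries lay within or below the Young range. In Old 10, with no read, up to 0.0319 normalised CPM is allowed by counting error alone (3 reads). Mean levels were 0.0456 ± 0.0175 in Young, 0.361 ± 0.518 in Old and 0.623 ± 1.20 in Old_CP2 (SD, n = 4 each), and 0.0244 ± 0.00592 in Old_CP2 without library 15 (SD, n = 3).

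**Figure D1:**
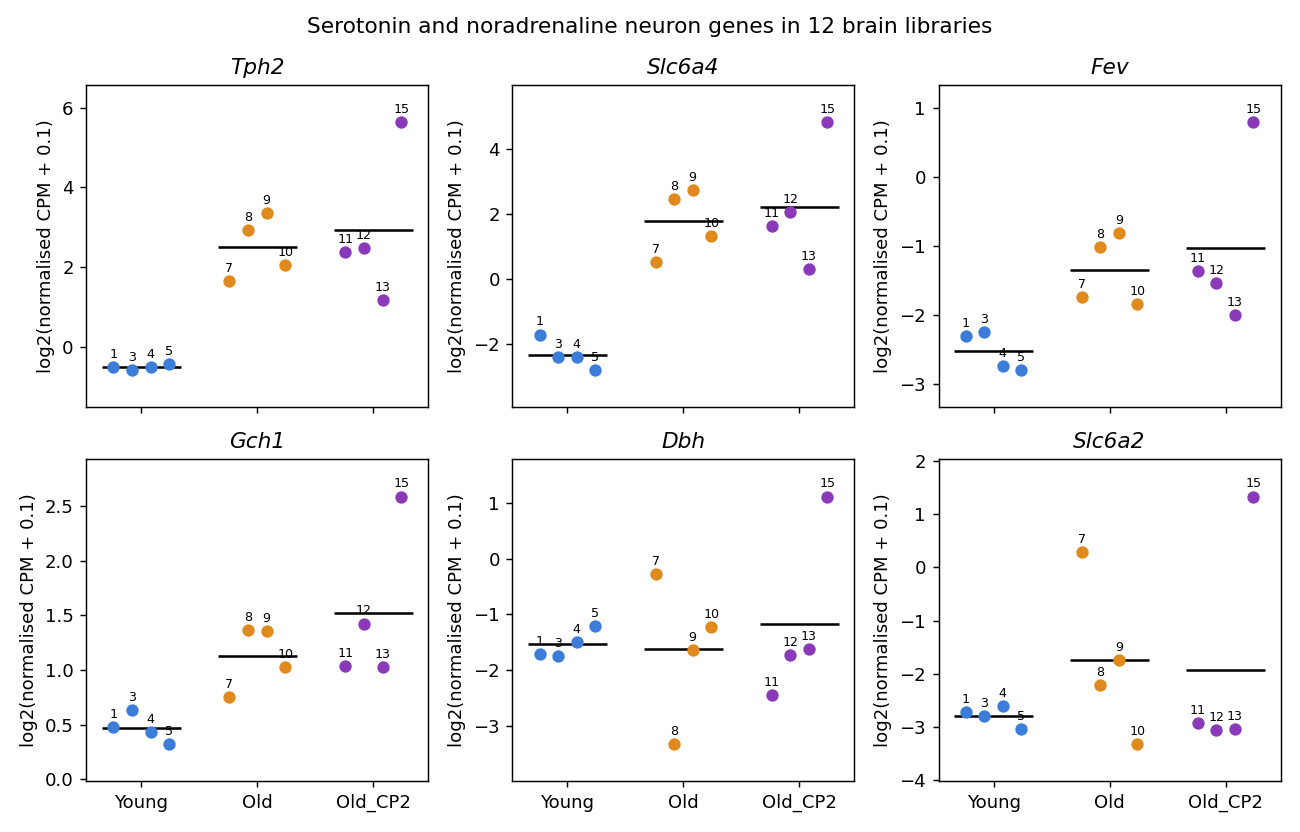
Level of each of the 6 genes, as log2(normalised CPM + 0.1) on the vertical axis, in the 12 libraries by group; points are libraries with their numbers and bars are group means of the plotted values. The 8 libraries of 23 months lie above Young for Tph2, Slc6a4, Fev and Gch1, while Dbh and Slc6a2 stand high in Old 7 and Old_CP2 15.

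Between Old and Young, which differ in age, strain label and vehicle, 2 of the 6 genes rose and none fell, against 3.96% of all tested genes that rose and 2.74% that fell. Slc6a4 rose by a log2 fold change of 5.20 ± 1.10 (SE, adjusted p = 0.0153) and Tph2 by 3.35 ± 0.876 (SE, adjusted p = 0.0385). Fev was higher in all 4 Old libraries than in any Young one but missed the threshold, at 1.98 ± 0.765 (SE, adjusted p = 0.148). Gch1 was likewise without overlap at 0.72 ± 0.317 (SE, adjusted p = 0.209). Non-overlapping groups with Old higher were found for 4 of the 6 genes and for 6.94% of all tested genes (6.32% had Old lower). Slc6a2 gave 2.98 ± 1.66 (SE, adjusted p = 0.330) and Dbh 0.39 ± 0.963 (SE, adjusted p = 0.867), both with overlapping groups. Without Old 7, Slc6a2 was at 1.17 and Dbh at -0.38, and with limma voom Slc6a2 was at 1.15 and Dbh at -0.62.

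The call of Slc6a4 held when any 1 library of either group was left out, with adjusted p from 0.0192 to 0.0483. The call of Tph2 was lost without any 1 of the 4 Young libraries (adjusted p from 0.0878 to 0.0954), without Old 8 (0.0681) and without Old 9 (0.0868), all by edgeR's test. With limma voom, neither passed (adjusted p = 0.200 for Tph2 and 0.209 for Slc6a4). DESeq2 called both (adjusted p = 0.00179 for Tph2 and 4.07e-06 for Slc6a4), and also Fev (0.0458). With only the 2 groups compared, edgeR's test also called Fev (adjusted p = 0.0361) and Gch1 (0.0378). Where Old 7 and Old_CP2 15 were both left out, Fev rose too, by 2.14 (adjusted p = 0.0222), and Gch1 by 0.84 (adjusted p = 0.0122).

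Between Old_CP2 and Old, the comparison of the inhibitor with its vehicle at 1 age, none of the 6 genes passed edgeR's test, and 0 of the 6 had an unadjusted p under 0.05. DESeq2 and limma voom also called 0. Of all tested genes, 0.0443% were called (0.0266% rose and 0.0177% fell), and 6.31% had an unadjusted p under 0.05. The 6 genes had log2 fold changes of 0.55 to 1.32, each with overlapping groups; 1.62% of all tested genes had Old_CP2 higher and 1.82% lower without overlap. Tph2 differed by 1.32 ± 0.749 (SE, adjusted p = 0.826) and Slc6a4 by 1.20 ± 0.779 (SE, adjusted p = 0.834). Library Old_CP2 15 decided the sign: without it Tph2 was at -0.54, Slc6a4 at -0.53, Fev at -0.43, Dbh at -0.93 and Slc6a2 at -3.82, while Gch1 was at 0.03.

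Between Old_CP2 and Young, which shares the Young libraries with the first comparison, 4 of the 6 genes rose, against 4.63% of all tested genes that rose and 2.94% that fell. Slc6a4 rose by 6.41 ± 1.11 (SE, adjusted p = 0.00493), Tph2 by 4.67 ± 0.902 (SE, adjusted p = 0.00876), Gch1 by 1.26 ± 0.316 (SE, adjusted p = 0.0293) and Fev by 2.87 ± 0.747 (SE, adjusted p = 0.0350). The groups of these 4 genes did not overlap, as for 8.42% of all tested genes with Old_CP2 higher (7.07% had it lower). Slc6a2, at 3.72 ± 1.64 (SE, adjusted p = 0.192), and Dbh, at 1.34 ± 0.941 (SE, adjusted p = 0.430), did not pass, and without Old_CP2 15 they were at -0.84 and -0.53. Without Old_CP2 15, the rises were 4.68 for Slc6a4 (adjusted p = 0.00235), 2.81 for Tph2 (adjusted p = 0.00276) and 0.75 for Gch1 (adjusted p = 0.0267), while Fev, at 1.56, no longer passed (adjusted p = 0.0706). The calls of Fev and Gch1 were also lost without any 1 Young library, with adjusted p from 0.0609 to 0.0908 and from 0.0530 to 0.0739. Limma voom called none of the 4, with adjusted p from 0.0677 for Gch1 to 0.154 for Slc6a4. DESeq2 called all 4, with adjusted p from 3.22e-09 for Slc6a4 to 0.00117 for Gch1.

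**Figure D2:**
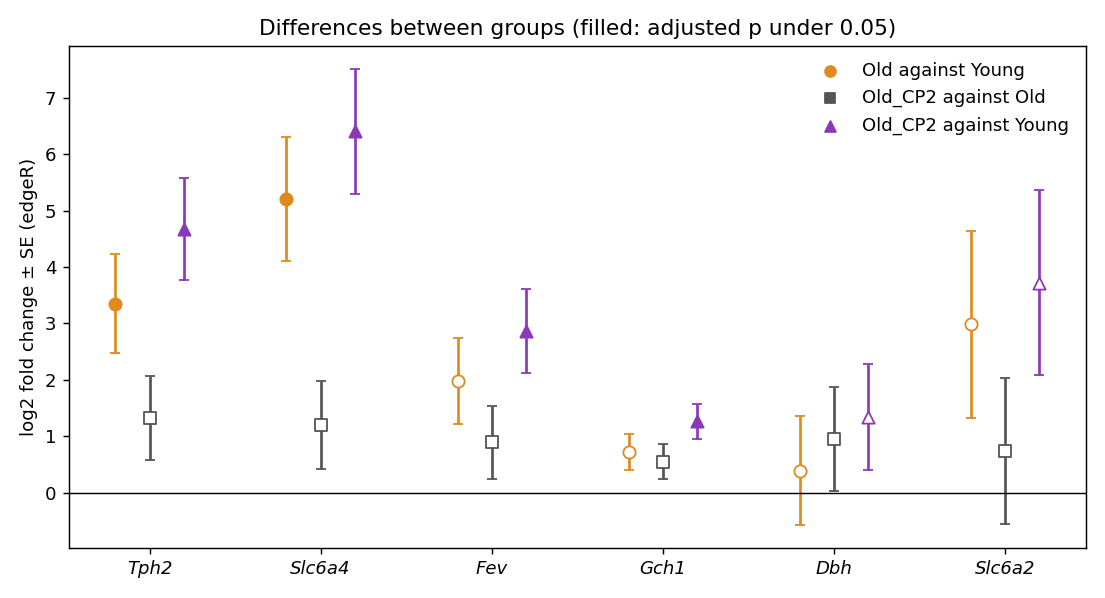
Log2 fold change with its standard error from edgeR (vertical axis) for each of the 6 genes in the 3 comparisons; filled symbols passed an adjusted p under 0.05. Tph2 and Slc6a4 are filled against Young in both groups of 23 months, Fev and Gch1 only for Old_CP2 against Young, and no symbol is filled for Old_CP2 against Old.

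Levels of different genes can be compared only per length, for which the deposited RPKM values (reads scaled by gene length and library total) were used. In Young, Gch1 led with a mean RPKM of 0.376, followed by Tph2 at 0.172, Dbh at 0.0754, Fev at 0.0388, Slc6a4 at 0.0191 and Slc6a2 at 0.00598. From Gch1 down to Fev, the ranges of neighbouring genes did not overlap, while those of Fev and Slc6a4, and of Slc6a4 and Slc6a2, did. In Old, Tph2 led at 1.75 RPKM, above Slc6a4 at 0.697, Gch1 at 0.618, Fev at 0.155, Dbh at 0.0984 and Slc6a2 at 0.0481. Only the step from Gch1 to Fev had ranges apart there, and Slc6a4 stood above Gch1 in 2 of 4 libraries. The means of Old_CP2 kept the order of Old, with Tph2 at 4.65 and Slc6a2 at 0.0867 RPKM, and the ranges of all neighbours overlapped. Slc6a4 stood above Gch1 in 1 of the 4 Old_CP2 libraries.

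The balance of the serotonin enzyme and transporter differed between Young and the libraries of 23 months. Per length, the ratio of Tph2 to Slc6a4 was 4.62, 10.2, 10.8 and 22.8 in Young 1, 3, 4 and 5. It was 3.59, 2.22, 2.44 and 2.66 in Old 7, 8, 9 and 10, and 2.70, 2.16, 3.01 and 2.78 in Old_CP2 11, 12, 13 and 15. No library of 23 months reached the lowest Young ratio, and the 8 lay close together although their Tph2 reads spanned 201 to 4005. Geometric means were 10.4 in Young, 2.68 in Old and 2.64 in Old_CP2. As these ratios were singled out after the values were seen, they are given as a description, with no test. The Young ratios rest on 4 to 16 Slc6a4 reads: Tph2 made up 74.6% of the reads of the pair in Young 1 (95% Clopper-Pearson interval 62.1 to 84.7, counting error only) and 93.5% in Young 5 (84.3 to 98.2). In Old 8 the share was 58.5% (55.2 to 61.8), and in Old 7 it was 69.5% (64.7 to 74.0). Of the libraries of 23 months, only Old 8 and Old_CP2 12 had intervals wholly below that of Young 1. All of them had intervals below that of Young 5.

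The noradrenaline genes showed another balance. Per length, the ratio of Slc6a2 to Dbh was 0.674 in Old 7, 0.512 in Old_CP2 15 and 0.387 in Old 9. It lay between 0.0291 and 0.109 in Young and was 0.164, 0.0436 and 0.0415 in Old_CP2 11, 12 and 13, so Slc6a2 stayed below Dbh in each of these 10 libraries. As counting precision, Slc6a2 made up 60.7% of the joint reads of the pair in Old 7 (52.9 to 68.2), 54.0% in Old_CP2 15 (48.7 to 59.2) and, on few reads, 47.1% in Old 9 (29.8 to 64.9). Old 8 had reads of Slc6a2 but none of Dbh, and Old 10 the reverse.

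Across the 8 libraries of 23 months, which share strain label and age, Tph2 and Slc6a4 placed the libraries in the same order: Old_CP2 15 first, then Old 9, Old 8, Old_CP2 12, Old_CP2 11, Old 10, Old 7 and Old_CP2 13. On log2(normalised CPM + 0.1), Pearson's r was 0.989 (permutation p = 2.48e-05, adjusted over 15 pairs 0.000372) and Spearman's rho was 1 (permutation p = 4.96e-05, adjusted 0.000744). Without the 2 libraries farthest from the median of Tph2, r was 0.977. Tph2 and Fev gave r = 0.986 (permutation p = 9.921e-05, adjusted 0.000744), rho = 0.952 (permutation p = 0.00114, adjusted 0.0057) and r = 0.936 without those 2. The ties of Gch1 were looser. With Tph2 its r was 0.942 (permutation p = 0.0036, adjusted 0.0108), its rho 0.881 (permutation p = 0.00724, adjusted 0.0217), and r without the 2 farthest 0.836. With Slc6a4 its r was 0.938 (permutation p = 0.00156, adjusted 0.00586), its rho 0.881 (permutation p = 0.00724, adjusted 0.0217), and r without the 2 farthest 0.927. With Fev its r was 0.934 (permutation p = 0.00734, adjusted 0.0184), but rho was 0.762 (permutation p = 0.0368, adjusted 0.0919), and r fell to 0.570 without Old 9 and Old_CP2 15. Slc6a4 and Fev gave r = 0.959 (permutation p = 0.000372, adjusted 0.00186), rho = 0.952 (permutation p = 0.00114, adjusted 0.0057) and 0.862 without the 2 farthest. Within 1 group there were 4 libraries, too few for a correlation, but with each group's mean taken off, r of Tph2 and Slc6a4 over the 8 was 0.988.

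Dbh and Slc6a2 did not follow the serotonin genes. Their own r was 0.771 (permutation p = 0.0261, adjusted 0.0559) and rho 0.357 (permutation p = 0.389, adjusted 0.584). The 8 pairs of a noradrenaline gene with Tph2, Slc6a4, Fev or Gch1 had r from 0.372 to 0.698, none with an adjusted p under 0.05 by permutation. Without Old_CP2 15 alone, r was below 0 in 7 of the 8 pairs, the exception being Fev and Slc6a2 (0.133). Without the 2 farthest libraries, r was below 0 in 6 of the 8, and for Gch1 and Slc6a2 it was -0.437 without Old_CP2 15 and 0.608 without Old 7 and Old_CP2 15. Old 8 shows the contrast, at rank 3 of 8 for Tph2 and rank 8 for Dbh. Old 7 shows it the other way, at rank 7 for Tph2 and rank 2 for both Dbh and Slc6a2.

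**Figure D3:**
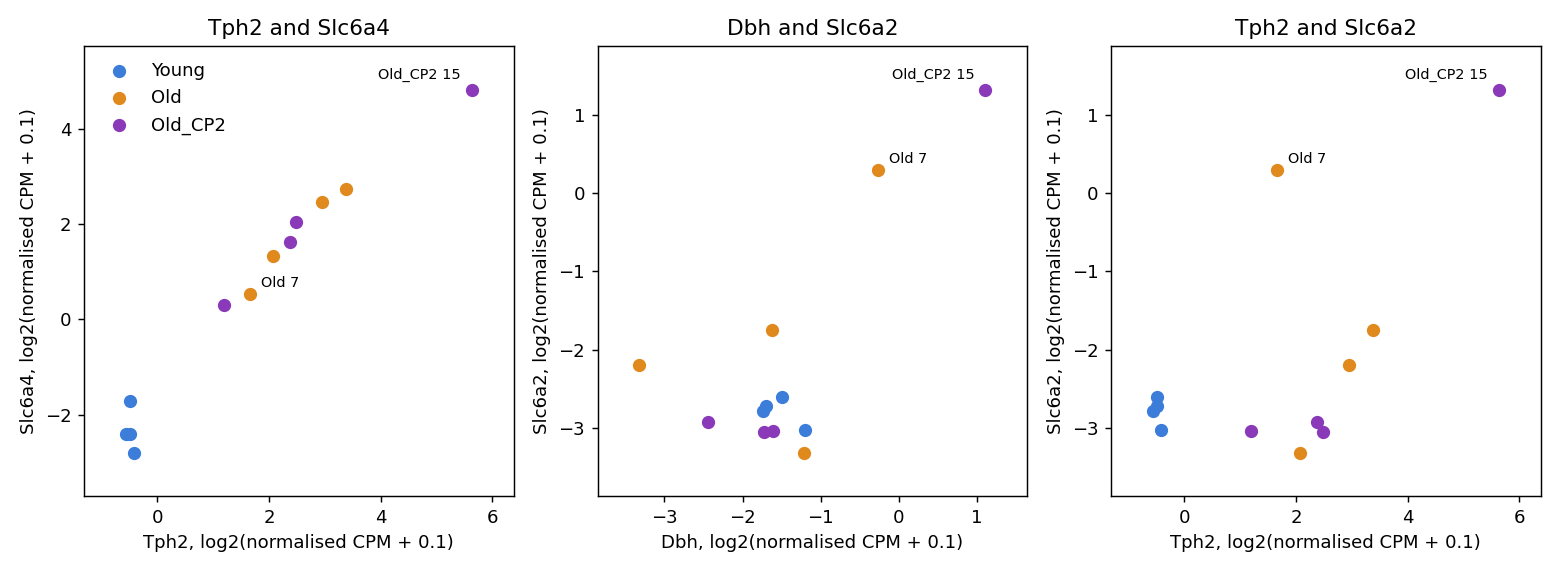
Pairs of genes in the 12 libraries, both axes as log2(normalised CPM + 0.1), with 1 point per library coloured by group. Tph2 and Slc6a4 lie along 1 line in the libraries of 23 months (r = 0.989), whereas Old 7 and Old_CP2 15 stand apart for Slc6a2, and Old 7 does so at a low Tph2 level.

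Old_CP2 15 exceeded the next highest library of 23 months by 4.84 times for Tph2, 4.26 times for Slc6a4, 3.47 times for Fev, 2.29 times for Gch1, 2.82 times for Dbh and 2.14 times for Slc6a2. Over the median of the other 7, it was 9.71 times as high for Tph2 and 77.4 times for Slc6a2. Ddc and Slc18a2, whose products these neurons share with dopamine neurons, were also high there, as were Lmx1b and Gata2. Ddc, which makes serotonin and dopamine from their precursors, was at 54.4 normalised CPM in Old_CP2 15 against a highest value of 28.1 in Old. Slc18a2, the vesicle transporter of all monoamines, was at 52.3 against at most 27.1 in any other library and 23.8 in Old. Lmx1b, a transcription factor of serotonin neurons, was at 3.83 against 1.98 in Old, and Gata2 at 7.90 against 5.20 in Old. Ddc rose between Old_CP2 and Young (log2 fold change 1.26, adjusted p = 0.0408 by edgeR), a call lost without Old_CP2 12 or 15 or Young 1, 4 or 5, and not between Old and Young (0.93, adjusted p = 0.124).

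The other genes of these pathways moved less evenly. On a list of 32 genes of serotonin neuron identity, all tested, 7 rose and 2 fell between Old and Young, Tph2 and Slc6a4 among the 7, and 11 rose and 1 fell between Old_CP2 and Young, beside 6.7% and 7.57% of all tested genes called in either direction. Without Tph2, Slc6a4 and Fev, 5 of 29 rose and 2 fell in the first and 8 rose and 1 fell in the second. The list's median log2 fold change was 0.10 and 0.13 with these 3 genes, and -0.04 and 0.12 without them. Of the other genes that rose in either comparison, En1, Foxa2, Ddc and Slc18a2 are also on the list of dopamine neuron markers. Gata3 and En2 are also on that of midbrain and hindbrain, so these rises are counted on more than 1 list. Gata3, a transcription factor of caudal serotonin neurons and of other midbrain neurons, rose from a normalised CPM of 0.534 ± 0.244 (Young) to 4.05 ± 1.10 (Old) and 3.80 ± 0.857 (Old_CP2) (SD, n = 4 each; log2 fold change 2.92, adjusted p = 0.00047, and 2.82, adjusted p = 0.000433, by edgeR). En1, a midbrain-hindbrain transcription factor, rose by 3.16 (adjusted p = 0.0115) and 3.52 (adjusted p = 0.00577), and Foxa2, of the ventral midline, by 2.35 (adjusted p = 0.0142) and 2.39 (adjusted p = 0.0114). These calls held without any 1 library. Lmx1b had 1.47 ± 0.387, 1.76 ± 0.380 and 1.97 ± 1.30 normalised CPM in Young, Old and Old_CP2, and Gata2 had 3.82 ± 0.863, 4.52 ± 0.466 and 5.20 ± 1.84 (SD, n = 4 each). Neither passed in any comparison (edgeR, adjusted p at least 0.237), so both transcription factors gave no call where Tph2 and Slc6a4 did.

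Of 31 genes listed for noradrenaline neurons, 28 were tested. Between Old and Young 5 rose and 2 fell, and between Old_CP2 and Young 7 rose and 1 fell, with median log2 fold changes of 0.23 and 0.26. Dbh and Slc6a2 were not among them. Of all tested genes, 3.96% rose and 2.74% fell in the first comparison, and 4.63% rose and 2.94% fell in the second. Th, which makes the precursor of dopamine, the substrate of Dbh, rose from a normalised CPM of 6.01 ± 3.61 (Young) to 18.2 ± 2.16 (Old) and 21.5 ± 9.57 (Old_CP2) (SD, n = 4 each; log2 fold change 1.59, adjusted p = 0.0220, and 1.83, adjusted p = 0.00992, by edgeR); the first call was lost without Young 1, Young 4 or Young 5. Tfap2b, a transcription factor, rose by 4.24 (adjusted p = 0.000168) and 3.80 (adjusted p = 0.00031), and was at 12.8 in Old 7 against 4.22 to 8.58 in the other 7 libraries of 23 months. Gal, a neuropeptide of the locus coeruleus and of the hypothalamus, fell by 2.37 in Old (adjusted p = 0.0158); the 15 hypothalamus markers, Gal among them, had a median of -1.95 there, and their part in this value was not tested. Phox2a, which specifies noradrenaline neurons, had 0.0511 to 0.446 normalised CPM over all 12 libraries and did not pass. Pnmt, which makes adrenaline, had 101 reads in all, and Hand2, a factor of sympathetic neurons, had 1.

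In the tetrahydrobiopterin pathway, 17 of 18 listed genes were tested. Between Old and Young 3 rose, between Old_CP2 and Young 4 rose, and none fell. Of all tested genes, 6.7% and 7.57% were called in either direction. The listed genes that rose were Tph2, Th and Agmo, and, between Old_CP2 and Young, Gch1 as well. Without Tph2 and Gch1, 2 of 15 rose in each comparison, with median log2 fold changes of 0.027 and 0.098. Agmo, which uses the cofactor to cleave ether lipids, rose by 0.52 (adjusted p = 0.00489) and 0.38 (adjusted p = 0.0174), from 6.59 ± 0.326 to 9.42 ± 0.714 and 8.59 ± 0.782 normalised CPM (SD, n = 4 each). The enzymes downstream of Gch1 did not pass: Pts was at 19.1, 17.0 and 16.9 mean normalised CPM in Young, Old and Old_CP2, Spr at 31.4, 32.0 and 34.2, and Qdpr, which recycles the cofactor, at 220 and 221 in Young and Old and 196 in Old_CP2. Gchfr, the feedback regulator of GTP cyclohydrolase, had 0.282, 0.653 and 0.814 and did not pass either, with its highest value (2.02) in Old_CP2 15.

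Among 18 genes of monoamine storage and breakdown, 17 were tested. Between Old and Young 1 rose, and between Old_CP2 and Young 2 rose and 1 fell. Of all tested genes, 6.7% and 7.57% were called in either direction. Aldh2 was the gene that rose in Old (log2 fold change 0.16, adjusted p = 0.0472 by edgeR), a call lost without any 1 of 6 libraries. Aldh3a2 rose in Old_CP2 (0.18, adjusted p = 0.0388 by edgeR), a call lost without any 1 of 7. Slc18a2 rose between Old_CP2 and Young by 1.39 (adjusted p = 0.0283) and was at 0.93 between Old and Young (adjusted p = 0.128); without Old_CP2 15 the first call was lost, as it was without Old_CP2 12, Young 1, Young 4 or Young 5. Maoa and Maob, which break monoamines down and are made by many cell types, did not pass. Over the 12 libraries their normalised CPM lay between 34.8 and 48.6 for Maoa and 22.8 and 33.5 for Maob, with overlapping groups.

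**Figure D4:**
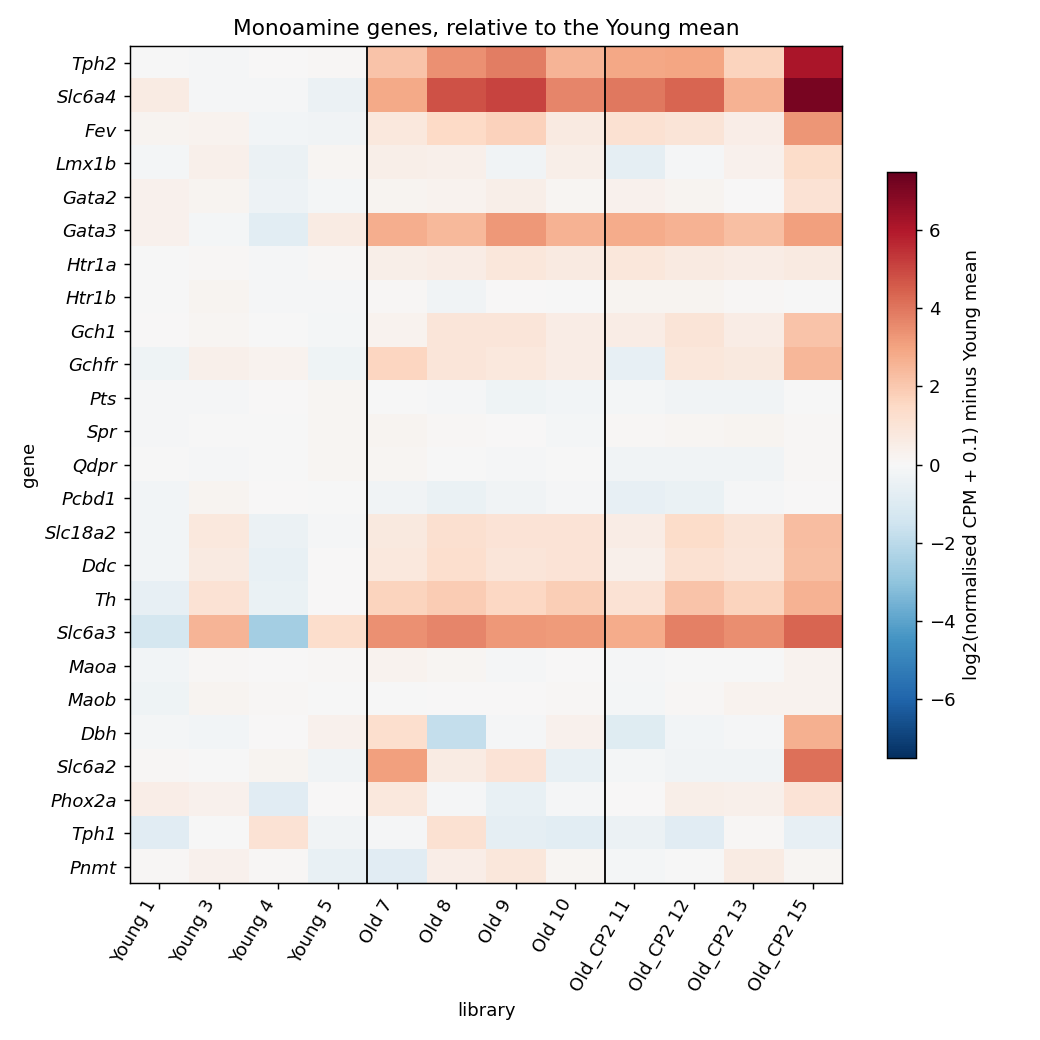
Difference of log2(normalised CPM + 0.1) from the Young mean, by colour, for the 6 genes and 19 others of the same pathways (rows) in the 12 libraries (columns), with lines between groups. Tph2 and Slc6a4 are red in all libraries of 23 months and darkest in Old_CP2 15; Slc6a2 is red in Old 7 and Old_CP2 15, and Maoa, Maob and Qdpr stay near white.

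Marker lists of other brain regions and neurons also differed between the groups, unevenly. Against Young, 3.96% of all tested genes rose and 2.74% fell in Old, and 4.63% rose and 2.94% fell in Old_CP2. Some genes stand on more than 1 list, so the counts of the lists are not separate. Th, Ddc and Slc18a2, for example, are on both the noradrenaline and the dopamine list. Of 23 genes listed for midbrain and hindbrain, 16 were tested, 10 rose in Old and 9 in Old_CP2 against Young and none fell, with median log2 fold changes of 2.06 and 1.80. Their summed normalised CPM was 156 to 207 in Young, 213 to 356 in Old, and for Old_CP2 196 to 307. Pax7, a transcription factor of the dorsal midbrain, rose from 0.174 ± 0.107 in Young to 4.00 ± 0.116 in Old (SD, n = 4 each; log2 fold change 4.49, adjusted p = 4.39e-05 by edgeR). Hoxa5 and Hoxb5, genes of the caudal hindbrain, were at 0 in all Young libraries, but neither was among the genes that rose. Their levels at 23 months are not given here. Of 15 dopamine neuron markers, all tested, 5 rose in Old and 9 in Old_CP2 and none fell, with summed levels of 152 to 230, 280 to 315 and 225 to 458, the last in Old_CP2 15. Slc6a3, the dopamine transporter, varied widely in Young (1.17, 18.1, 0.434 and 7.69 normalised CPM), while Tph2 in the same libraries lay between 0.575 and 0.647. It rose in Old_CP2 against Young by 2.57 (adjusted p = 0.0473 by edgeR), a call lost without any 1 of 7 of these 8 libraries. Of 15 hippocampus and cortex markers, 1 rose and 1 fell in Old against Young; their summed level was 4005 to 4363 in Young, 3049 to 4343 in Old, and for Old_CP2 3535 to 4574, and the lowest values of the last 2 groups were those of Old 7 and Old_CP2 15. Of 14 cerebellum markers none passed, but their sum was 1038 in Old 7 against 279 to 400 in the other 11 libraries. The 7 cholinergic brainstem and motor markers had summed levels of 7.76 to 20.1 in Young, 9.43 to 21.6 in Old, and for Old_CP2 11.6 to 22.2; 2 rose and 1 fell in Old and 2 rose in Old_CP2. Markers of other forebrain regions were lower. Of 13 tested striatum markers 8 fell in Old and 5 in Old_CP2 against Young and none rose, and of 13 thalamus and habenula markers 6 and 7 fell and none rose. Of 15 hypothalamus markers 3 and 2 fell and none rose, with summed levels of 68.1 to 273 in Young, 13.3 to 73.7 in Old, and for Old_CP2 14.7 to 105. None of 14 choroid plexus markers passed, with sums of 2217 to 3492, 418 to 2007, and 369 to 1625. The part of these regional differences in the levels of Tph2, Slc6a4, Fev, Gch1, Dbh and Slc6a2 was not tested.

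**Figure D5:**
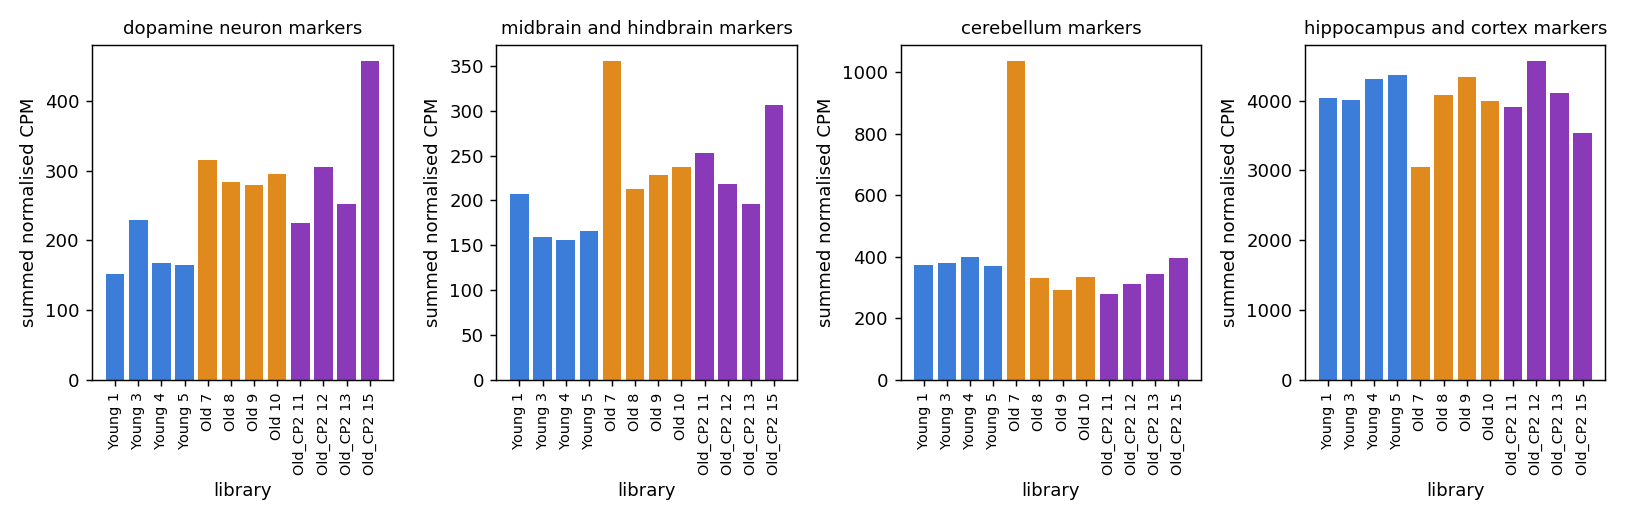
Summed normalised CPM (vertical axis, from 0) of 4 marker lists in each of the 12 libraries, with bars coloured by group. Old 7 is highest for the midbrain and hindbrain list (356) and the cerebellum list (1038), Old_CP2 15 for the dopamine neuron list (458), and both are lowest in their groups for the hippocampus and cortex list.

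Other sources of these transcripts were examined by their markers. Tph1, the tryptophan hydroxylase of the pineal gland, gut and mast cells, had 0.309 ± 0.253, 0.295 ± 0.281 and 0.172 ± 0.0781 normalised CPM in Young, Old and Old_CP2 (SD, n = 4 each) and did not pass. Cpa3, a mast cell protease, had 110 reads in all. Of 12 genes of mast cells and other serotonin or pteridine cells, 5 were tested. Against Young, Kit was the only gene of this list that rose, in Old and in Old_CP2, and Hdc fell in Old_CP2. The sum of all 12 genes was 38.7 to 53.5 in Young, 62.7 to 94.2 in Old, and for Old_CP2 63.0 to 72.1. The part of Kit in this sum was not tested. Of 9 tested markers of sympathetic and peripheral neurons none rose and 1 fell (Npy) in each of these comparisons, with sums of 553 to 578, 481 to 580 and 530 to 589.

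The genes most like each of the 6 over all 12 libraries were sought among 14654 named genes by Pearson's r of log2(normalised CPM + 0.1), as a description. Tph2 was most like Slc6a4 (0.986), Il1r2 (0.954) and Gch1 (0.946). Slc6a4 was most like Tph2, Il1r2 (0.968) and Slc9a2 (0.952). Fev was most like Gch1 (0.962), Tph2 (0.955) and Slc6a4 (0.925), and Gch1 most like Tph2, Slc6a4 (0.922) and Slc18a2 (0.921). Tph2, Slc6a4 and Gch1 thus recurred among these nearest genes. Fev, Dbh and Slc6a2 lay under the mean of 0.5 CPM asked of a candidate, so none of them could be found as a nearest gene. The search therefore cannot compare the likeness among serotonin genes with that among noradrenaline genes. Dbh was most like Chchd5 (0.866), Fam131c (0.856) and Degs1 (0.850). Slc6a2 was most like Sh3bgr (0.923), Plin2 (0.909) and Gabra6 (0.909), a receptor subunit of cerebellar granule cells that was at 78.9 normalised CPM in Old 7, 10.8 in Old_CP2 15 and at most 0.0256 in Young.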

How the data were processed

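RNA was sequenced from 12 libraries. Per the submitters' processing notes, bcl2fastq, TopHat and featureCounts of Subread were used with mm10; versions and annotation are not given in the sources used here. Per the file headers, the authors deposited a gene count and an RPKM value per library and gene, with a gene length. Libraries came from a kit that does not mark strand, per the labels' protocols. Counts were tested with edgeR 4.0.16 (R 4.3.3): TMM factors, filterByExpr, glmQLFit and glmQLFTest over 12 libraries with group as the only term, tested on simulated data first. Alternatives were DESeq2 1.42.0, limma voom (limma 3.58.1), RLE factors, no filter, only the 2 groups compared, and leaving out libraries; leaving out Old 7 and Old_CP2 15 together was chosen after seeing the data. RPKM values served only to order levels; the totals they imply exceed the summed counts, which are 79.8% to 85.4% of them. Intervals cover counting error only. No 2 libraries of a group agreed within sampling noise. Promoters came from RefSeq (GRCm38.p6); exons from GENCODE.

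The 6 genes and the lists were chosen with earlier results of these data known. Named are the 6 genes, genes of fixed role on each list whatever their values (some are not reported here), up to 4 called genes per list and comparison by smallest p, and for each of the 6 the 3 named genes most like it with a mean of at least 0.5 CPM. Other genes named were chosen after their values were seen.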

Additional observations from a re-analysis of the deposited data

Results flagged for a closer look

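In 18 sets of 4 libraries (6 genes in 3 groups), the library farthest from the others was set against the range of its group with Dixon's 95% critical value for 4 samples. It was exceeded in 6 sets, all of them for library Old_CP2 15 within Old_CP2. The normalised CPM there was 49.6 for Tph2 (gap over range 0.93), 28.1 for Slc6a4 (0.893), 1.64 for Fev (0.906), 5.91 for Gch1 (0.837), 2.06 for Dbh (0.927) and 2.42 for Slc6a2 (0.995). Chance flags about 1 group in 20, and these 6 share 1 library, so they are not 6 separate signs. Old 7, with 102 of the 126 Slc6a2 reads of Old, did not exceed it.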

How the results depend on the processing

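No paired analysis was possible because the groups share no replicate number. Genes called between Old and Young, 1511, were 2479 with DESeq2 and 855 to 1258 with 1 library left out. Between Old_CP2 and Young, 1707 became 2647 and 827 to 1590. Between Old_CP2 and Old, 10 became 108 with DESeq2, 17 with no filter, 32 without Old 7 and Old_CP2 15 together, and 6 (without Old 9) to 38 (without Old_CP2 15). Of the 6 genes, 2 were called between Old and Young, 0 with limma voom and 3 with DESeq2. The count was 4 with only the 2 groups compared, 4 without Old 7 and Old_CP2 15, and 1 to 2 with 1 library left out. Between Old_CP2 and Young 4 were called: 0 with voom, 4 with DESeq2, 2 with only the 2 groups, and 2 to 4 with 1 left out. Without Old 7 and Old_CP2 15, log2 fold changes of Old_CP2 against Old turned to -0.77 for Tph2, -0.82 for Slc6a4, -0.59 for Fev, -0.089 for Gch1 and -0.15 for Dbh; Dbh turned to -0.38 for Old and -0.54 for Old_CP2 against Young, and Lmx1b to -0.12 for Old_CP2 against Young. With voom, Dbh was at -0.62 for Old against Young and Slc6a2 at -0.40 for Old_CP2 against Old. Leaving out 1 library, Old_CP2 against Old ranged from -0.54 to 1.68 for Tph2, -0.53 to 1.58 for Slc6a4, -0.43 to 1.21 for Fev, -0.93 to 1.72 for Dbh and -3.82 to 2.56 for Slc6a2; Dbh from -0.38 to 0.79 for Old and -0.53 to 1.72 for Old_CP2 against Young; Slc6a2 from -0.84 to 4.14 and Lmx1b from -0.12 to 0.67 for Old_CP2 against Young. Without the 2 farthest libraries, r was -0.622 for Tph2 and Dbh, -0.272 for Tph2 and Slc6a2, -0.693 for Slc6a4 and Dbh, -0.424 for Slc6a4 and Slc6a2, -0.797 for Fev and Dbh and -0.302 for Gch1 and Dbh. With 1 library left out, the lowest Old_CP2 against Old values of Tph2, Slc6a4, Fev, Dbh and Slc6a2 were those without Old_CP2 15. Fits and correlations with libraries left out also held fewer libraries. The causes of these changes were not tested. Slc6a2 had too few reads to be tested against Young with only the 2 groups compared, and without Old 7 and Old_CP2 15. With 4 to 16 reads of Slc6a4 and 2 to 5 of Slc6a2 per Young library, depth limits the size of their fold changes.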

Other observations

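Receptors of the 2 transmitters, which cells of hippocampus, cortex and other regions make themselves, were also measured. The part of regional differences, such as those of the choroid plexus sums, in the receptor levels was not tested. Of 14 serotonin receptor genes 13 were tested, and 1 rose and 2 fell between Old and Young, with a median log2 fold change of -0.07. Of all tested genes, 3.96% rose and 2.74% fell there. Htr1a, an inhibitory receptor found on raphe neurons and on hippocampal cells, rose from 16.6 ± 1.07 normalised CPM in Young to 25.7 ± 3.06 in Old and 26.6 ± 2.24 in Old_CP2 (SD, n = 4 each; log2 fold change 0.63, adjusted p = 0.00183, and 0.68, adjusted p = 0.000997, by edgeR), with no overlap. Htr2a, an excitatory receptor of cortical neurons, fell from 14.6 ± 1.44 to 9.98 ± 0.982 in Old (log2 fold change -0.54, adjusted p = 0.00898), and was at 11.9 ± 1.37 in Old_CP2, where the difference from Young did not pass (adjusted p = 0.102, by edgeR). Htr1b and Htr2c did not pass, with Htr1b at 13.7 ± 1.46 in Young and 13.3 ± 1.32 in Old, and Htr2c at 86.7 ± 7.62 and 87.0 ± 13.9 (SD, n = 4 each).

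All 9 adrenergic receptor genes were tested, and 2 fell in each group of 23 months against Young while none rose. Of all tested genes, 2.74% fell in Old and 2.94% in Old_CP2. Adra1b fell from 23.8 ± 2.82 to 13.1 ± 2.05 and 13.9 ± 3.00 normalised CPM (SD, n = 4 each; log2 fold change -0.86, adjusted p = 0.00702, and -0.77, adjusted p = 0.00948, by edgeR). Adra2b, which is prominent in the thalamus, fell by 1.38 (adjusted p = 0.0226) and 1.80 (adjusted p = 0.00583); the first call was lost without Young 1, Old 7, Old 8 or Old 9. Of 13 thalamus and habenula markers, 6 fell in Old and 7 in Old_CP2, and their part in the Adra2b values was not tested. Adra2a, the autoreceptor of noradrenaline neurons, and Adrb1 did not pass, with Adra2a at 18.3 to 24.6 and Adrb1 at 12.3 to 25.9 normalised CPM over the 12 libraries. No gene of either receptor list passed between Old_CP2 and Old, where 1 serotonin receptor gene and 0 adrenergic ones had an unadjusted p under 0.05 by edgeR.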
